A study of Homo sapiens with 60 samples.

Results

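Glucose output from liver cells runs through a short set of enzymes, and glucose itself feeds back on transcription through the factor encoded by MLXIPL, known as ChREBP. The 10 genes described here are members of these pathways in HepG2, a human hepatocellular carcinoma cell line: pyruvate carboxylase (PC), the cytosolic and mitochondrial phosphoenolpyruvate carboxykinases (PCK1, PCK2), fructose-1,6-bisphosphatase (FBP1), the catalytic subunit of glucose-6-phosphatase (G6PC1), its glucose-6-phosphate transporter (SLC37A4), the coactivator PPARGC1A, MLXIPL, and the alpha-arrestins TXNIP and ARRDC4. They were chosen by name as 10 of the 60675 genes in the deposited table, and all 10 were found by Ensembl identifier and passed the filter on low counts, which left 16644 genes for testing. No measured value entered the rule, but the genes were proposed with earlier results of these data in view.

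The cells were exposed for 24 h to vehicle, given as 0.1% DMSO in the sample labels, or to a water extract at 20, 100 or 500 µg/mL. Extracts of 2 single herbs, Menthae Herba and Saposhnikoviae Radix, and of 5 multi-herb formulas, Saengmaek-san, Guibi-tang, Soyo-san, Okbyeongpung-san and Soshiho-tang, were used. Vehicle and the first 6 extracts had 3 libraries per dose and Soshiho-tang had 1, which makes 60 libraries in 22 groups, all from 1 cell line. Whether replicates came from separate cultures is not stated, and a p-value here is set only by how far these libraries spread, which may be technical. The glucose concentration of the medium is not given in the sources used here.

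The pathway can be read from the mitochondrion outward. PC turns pyruvate into oxaloacetate, the carboxykinases turn oxaloacetate into phosphoenolpyruvate, FBP1 removes a phosphate from fructose-1,6-bisphosphate, and G6PC1 with SLC37A4 releases free glucose in the endoplasmic reticulum. In liver, insulin represses G6PC1 and PCK1, while glucagon acts through cyclic AMP, CREB, FOXO1 and PPARGC1A to raise them. ChREBP is activated by glucose metabolites, and it and its paralog MondoA bind paired E-box-like motifs called carbohydrate response elements. TXNIP and ARRDC4, which limit glucose uptake, are among the targets of these factors.

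The promoters of 3 genes are shown because the G6PC1, TXNIP and ARRDC4 transcripts rose strongly with Menthae Herba in the results below and TXNIP holds the motif of the glucose-responsive factors. Each is the 250 bases before a RefSeq start (GRCh38.p14), read on the strand of the gene, for G6PC1 at chr17:42900549-42900798 on the plus strand, for TXNIP at chr1:145996580-145996829 on the minus strand and for ARRDC4 at chr15:97960453-97960702 on the plus strand. Capitals mark matches to the 5 motifs searched on both strands: CACGNG and CNCGNG 5 bases apart (a pair like a carbohydrate response element), TGACGTNA (cyclic AMP response element), TGTTTAC and TGTTTTG (forkhead sites), and CCAAT.
G6PC1: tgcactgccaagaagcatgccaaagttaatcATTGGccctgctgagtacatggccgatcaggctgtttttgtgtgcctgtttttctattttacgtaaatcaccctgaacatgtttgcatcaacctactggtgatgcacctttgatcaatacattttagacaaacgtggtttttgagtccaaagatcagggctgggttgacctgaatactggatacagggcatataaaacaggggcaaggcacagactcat
TXNIP: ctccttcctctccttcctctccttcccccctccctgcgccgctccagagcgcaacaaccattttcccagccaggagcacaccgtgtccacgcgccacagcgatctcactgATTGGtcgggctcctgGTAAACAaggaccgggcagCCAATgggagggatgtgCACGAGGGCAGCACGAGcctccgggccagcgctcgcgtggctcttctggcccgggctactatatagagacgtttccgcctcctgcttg
ARRDC4: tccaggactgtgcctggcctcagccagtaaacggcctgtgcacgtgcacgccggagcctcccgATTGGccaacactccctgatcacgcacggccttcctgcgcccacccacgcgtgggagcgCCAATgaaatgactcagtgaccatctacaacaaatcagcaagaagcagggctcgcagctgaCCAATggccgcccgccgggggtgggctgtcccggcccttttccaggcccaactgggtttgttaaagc

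Over windows that also hold the 50 bases after the start, the E-box pair was present in 0.501% of the 35116 promoters in the table, TGACGTNA in 3.01%, TGTTTAC in 3.42%, TGTTTTG in 4.92% and CCAAT in 34.6%. Promoters were listed for 9 of the 10 genes, in 14 windows, and PCK1 was not among them. The TXNIP pair lies 88 to 72 bases before the start, downstream of a forkhead match on the opposite strand at 124 to 118 bases and of a CCAAT box on each strand. It is the only pair among the 14 windows. ARRDC4 had 3 CCAAT boxes and no pair in this window, and G6PC1 had 1 CCAAT box on the opposite strand. MLXIPL, PPARGC1A and FBP1 had no match to the 5 motifs in their windows. For PPARGC1A, 1 window (chr4:24472856-24473155) lies outside the gene model given below and 1 (chr4:23881052-23881351) within it. Neither covers the start of that model. A match is a match of letters only, and none of the motifs overlapped another in the 3 sequences printed. Near variants of the strings were not searched, such as ttacgtaa in the G6PC1 sequence, which is close to TGACGTNA. The lack of a match therefore does not show that a site is absent.

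Library totals ran from 20446542 to 32386486 expected counts. Values are counts per 1000000 counts (CPM) after TMM scaling (a correction for library composition), and changes are log2 fold changes ± standard error from edgeR's quasi-likelihood test on all 57 replicated libraries. A gene was called when its p adjusted by Benjamini-Hochberg over the 16644 genes was under 0.05. The liver markers, 9 genes from ALB to HNF4A, summed to 37700 to 51060 CPM. Of the markers of other cells, LYZ stood at 923 to 2628 CPM and PDGFRB at 7.29 to 24.7 CPM, both highest with Menthae Herba at 500 µg/mL, while the endothelial KDR was at 0 in every library. The 5 leukocyte markers summed to 925.4 to 974 CPM with vehicle and 2505 to 2629 CPM with Menthae Herba at 500 µg/mL, and the 6 fibroblast markers to 13.1 to 14.6 and 25.0 to 25.6 CPM. LYZ and PDGFRB made up most of these sums, so the sums do not show the lists rising as sets. In that comparison 1 leukocyte marker was called higher and 1 lower of 3 tested. Of 2 fibroblast markers tested, 1 was higher and 1 lower, beside 39.8% of all genes called. Averages under 1 CPM were found for 3 of 5 leukocyte, 5 of 6 fibroblast and 3 of 4 endothelial markers. The part of these genes in the results below was not tested. Libraries also fell into 2 classes by the nuclear RNA MALAT1, 31 with 174.6 to 282.6 CPM and 29 with 387 to 553 CPM. Vehicle, Menthae Herba and Saposhnikoviae Radix libraries were all in the lower class, those of Soyo-san, Okbyeongpung-san and Soshiho-tang all in the higher class, and Saengmaek-san and Guibi-tang had both. For Soyo-san and Okbyeongpung-san the class and the difference from vehicle therefore cannot be told apart. Their comparisons of 500 with 20 µg/mL, like those of Menthae Herba and Saposhnikoviae Radix, are between libraries of 1 class. Guibi-tang had 2 lower-class and 1 higher-class library at 500 µg/mL, and 1 and 2 at 20 µg/mL. A fit with class as a covariate estimates it from Saengmaek-san and Guibi-tang alone. The sample codes of vehicle also begin with a first code number that no extract shares, and the labels do not say what it stands for. It cannot be told apart from any difference from vehicle.

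The question put to the data is which of these genes differ between each extract and vehicle and between doses. At 500 µg/mL against vehicle, Menthae Herba had 6 of the 10 genes called higher and 1 lower, beside 39.8% of all genes tested. Soyo-san had 5 higher and 1 lower (21.5% of all genes), Saengmaek-san 4 higher (12.6%), Saposhnikoviae Radix 3 higher (5.80%), Guibi-tang 2 higher (13.4%) and Okbyeongpung-san 1 higher (9.11%). The 3 libraries of vehicle are shared by all these comparisons. The gene called in every one of them was G6PC1. The median log2 fold change of the 10 genes with Menthae Herba was 0.84, against 0.005 for all genes.

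At the lower doses Menthae Herba and Soyo-san had fewer of the 10 genes called than at 500 µg/mL, while Guibi-tang had more at 20 µg/mL and Okbyeongpung-san had 1 at every dose. At 100 µg/mL against vehicle, Menthae Herba had 6 genes higher (14.0% of all genes called), Saengmaek-san 4 (6.05%), Guibi-tang 2 (7.96%), and Soyo-san and Okbyeongpung-san 1 each (8.31% and 12.9%). Saposhnikoviae Radix at 100 µg/mL had 0 called by edgeR (5.47% of all genes), 5 at an unadjusted p under 0.05 and 1 called by DESeq2. At 20 µg/mL, Menthae Herba, Saengmaek-san and Guibi-tang had 3 genes higher each (6.83%, 3.37% and 4.38% of all genes), Saposhnikoviae Radix 2 (7.19%), and Soyo-san and Okbyeongpung-san 1 each (3.88% and 6.99%). No gene of the 10 was called lower than vehicle at either of these doses. With the 6 extracts averaged, G6PC1 and PCK1 were higher than vehicle at 20 µg/mL, beside 10.9% of all genes called.

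Between the highest and the lowest dose, the extracts separated. Menthae Herba had 7 genes higher and 2 lower at 500 than at 20 µg/mL, with 32.1% of all genes called, and PCK2 was the gene of the 10 not called. Soyo-san had 5 higher and 1 lower (7.58%), Guibi-tang 1 higher and 1 lower (8.12%) and Saengmaek-san 1 lower (1.96%). Saposhnikoviae Radix and Okbyeongpung-san had 0 called by edgeR (0.397% and 0.0240% of all genes), with 3 and 2 genes at an unadjusted p under 0.05. DESeq2 called 0 of the 9 and 8 genes to which it gave an adjusted p. In the mean of 6 extracts, 6 genes were higher and 3 lower, beside 24.1% of all genes. The largest in each direction were G6PC1 at 0.59 ± 0.08 (adjusted p = 1.2e-08) and MLXIPL at -0.22 ± 0.02 (adjusted p = 2.7e-10), and PCK1 lost its call without the filter. The plot of dose differences by extract shows these values.

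**Figure D1:**
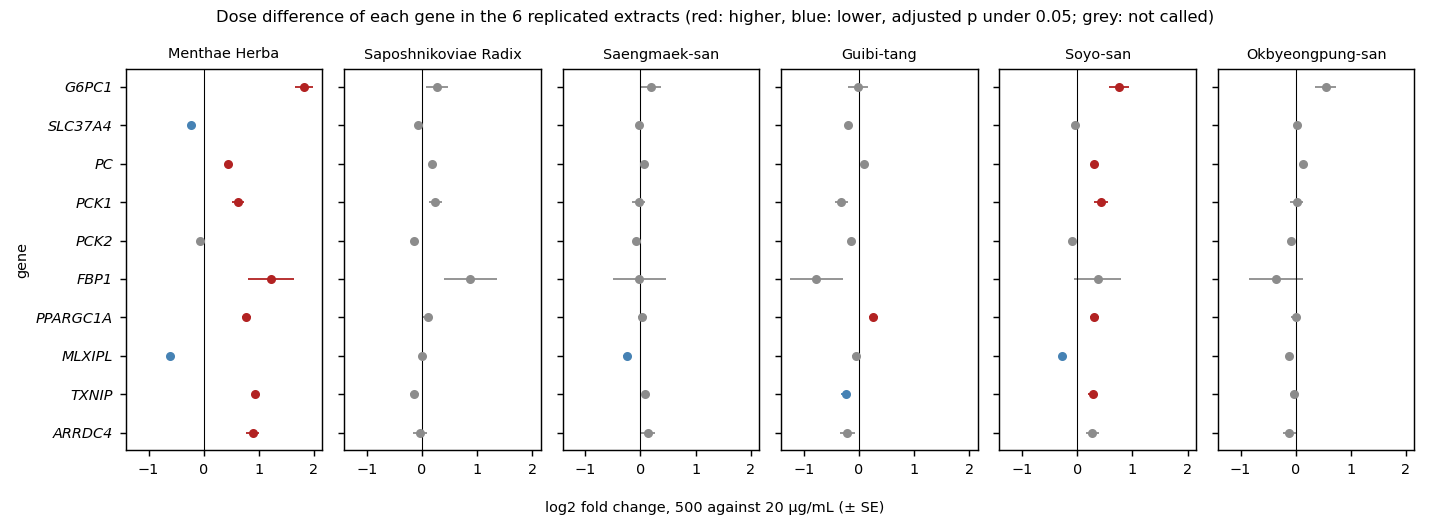
Log2 fold change (x axis, ± SE) of each of the 10 genes (y axis) at 500 against 20 µg/mL, 1 panel for each of the 6 replicated extracts with 3 libraries per dose. Red points were called higher, blue lower and grey were not called. Menthae Herba has 9 coloured points, with G6PC1 at 1.82, and Saposhnikoviae Radix and Okbyeongpung-san have none.

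G6PC1 (ENSG00000131482, chromosome 17, 42900797 to 42913369, GRCh38) encodes the enzyme of the last step of glucose production. Its libraries read 1.39, 1.51 and 1.33 CPM with vehicle and 12.3, 12.5 and 12.1 CPM with Menthae Herba at 500 µg/mL. Vehicle was the lowest of all 19 replicated groups and Menthae Herba at 500 µg/mL the highest, and neither overlapped its neighbour in the order. The difference was 3.12 ± 0.20 (adjusted p = 2.9e-18). Between 31 and 355 counts per library lie behind these levels.

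The other extracts at 500 µg/mL gave intermediate levels of G6PC1. Libraries stood at 5.58, 5.67 and 7.04 CPM with Soyo-san and at 5.09, 6.05 and 6.39 CPM with Saengmaek-san. Guibi-tang gave 3.37, 5.77 and 5.93 CPM and Okbyeongpung-san 4.38, 4.06 and 5.88 CPM, so that these 4 extracts overlapped each other. Saposhnikoviae Radix was lowest, at 3.03, 2.63 and 3.38 CPM. Every one of these libraries was above every vehicle library. The changes against vehicle ran from 1.10 ± 0.23 (adjusted p = 0.0019) with Saposhnikoviae Radix to 2.11 ± 0.21 (adjusted p = 1.1e-10) with Soyo-san. The single Soshiho-tang library at 500 µg/mL read 5.96 CPM.

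G6PC1 was already above vehicle at the lowest dose, a difference that cannot be told apart from the first code number, which vehicle shares with no extract. G6PC1 averaged, at 20 µg/mL, 3.49 CPM with Menthae Herba, 2.54 with Saposhnikoviae Radix, 5.10 with Saengmaek-san, 5.12 with Guibi-tang, 3.61 with Soyo-san and 3.26 with Okbyeongpung-san, and the Soshiho-tang library read 4.65 CPM. The SDs of G6PC1 over the 19 groups of 3 libraries ran from 0.0893 to 1.43 CPM. Against vehicle the differences at this dose ran from 0.83 ± 0.24 (adjusted p = 0.023) with Saposhnikoviae Radix to 1.85 ± 0.22 (adjusted p = 1.3e-07) with Guibi-tang, and the mean of 6 extracts was 1.40 ± 0.19 (adjusted p = 1.3e-06). With Guibi-tang the 1 library of the lower MALAT1 class, the class of vehicle, read 3.59 CPM and the 2 of the higher class 5.59 and 6.18 CPM. The Guibi-tang call held in every setting run. The call with Saposhnikoviae Radix was lost without replicate 1 or 3 of that group or of vehicle. At 100 µg/mL the smallest called difference was 0.73 ± 0.24 (adjusted p = 0.038) with Okbyeongpung-san, which was lost without any 1 of its 6 libraries and with library class as a covariate. Soyo-san at 100 µg/mL, at 0.90 ± 0.24 (adjusted p = 0.013), lost its call with that covariate and without Soyo-san 100 replicate 1 or vehicle replicate 3. Saposhnikoviae Radix at 100 µg/mL, at 0.68 ± 0.24 (adjusted p = 0.091), was not called though its libraries were all higher.

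The middle dose gave the lowest mean G6PC1 level of the 3 doses in 6 of the 7 extracts, Menthae Herba being the exception. G6PC1 averaged, at 100 µg/mL, 3.50 CPM with Menthae Herba, 2.26 with Saposhnikoviae Radix, 3.09 with Saengmaek-san, 3.28 with Guibi-tang, 2.60 with Soyo-san and 2.34 with Okbyeongpung-san, and the Soshiho-tang library read 3.34 CPM. Saengmaek-san shows it by library, with 3.65, 5.47 and 6.17 CPM at 20 µg/mL and 3.25, 2.94 and 3.08 CPM at 100 µg/mL. Okbyeongpung-san likewise had 2.93, 3.10 and 3.76 CPM and then 2.27, 2.25 and 2.49 CPM. In both extracts the doses did not overlap. In a comparison added after these values were seen, the mean of 6 extracts at 100 against 20 µg/mL was -0.41 ± 0.08 (adjusted p = 0.003), with 1.01% of all genes called. G6PC1 was the only gene of the 10 called there by edgeR. The call held without each of the 36 libraries in turn and in each of the other edgeR settings run. DESeq2 gave an adjusted p for only 6 of the 10 genes there, with 1 called, so it is not counted as a check of G6PC1.

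No single extract carried that dip as a called difference. At 100 against 20 µg/mL G6PC1 differed by -0.72 ± 0.19 (adjusted p = 1) with Saengmaek-san, -0.66 ± 0.19 (adjusted p = 0.31) with Guibi-tang, -0.49 ± 0.21 (adjusted p = 0.9) with Okbyeongpung-san and 0.00 ± 0.19 (adjusted p = 1) with Menthae Herba. Few genes of the whole table were called between these 2 doses: 0.937% with Menthae Herba, 0.0781% with Guibi-tang, 0.0120% with Saposhnikoviae Radix, 0.0120% with Okbyeongpung-san, and 0.00601% with Saengmaek-san and 0.00601% with Soyo-san. Menthae Herba had 1 gene of the 10 called, MLXIPL, and the other 5 extracts had 0 by edgeR, with 0 to 2 at an unadjusted p under 0.05. DESeq2 also called 0 in these 5 extracts. It gave an adjusted p for only 6 of the 10 genes with Guibi-tang and 5 with Okbyeongpung-san, so its count there does not cover all 10. From 20 to 500 µg/mL G6PC1 rose with Menthae Herba by 1.82 ± 0.17 (adjusted p = 2e-12) and with Soyo-san by 0.75 ± 0.18 (adjusted p = 0.0043), the second lost without Soyo-san 500 replicate 3 (adjusted p = 0.052). Okbyeongpung-san differed by 0.54 ± 0.19 (adjusted p = 0.8) with all libraries higher, and Guibi-tang by -0.01 ± 0.18 (adjusted p = 0.99) with overlapping libraries.

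**Figure D2:**
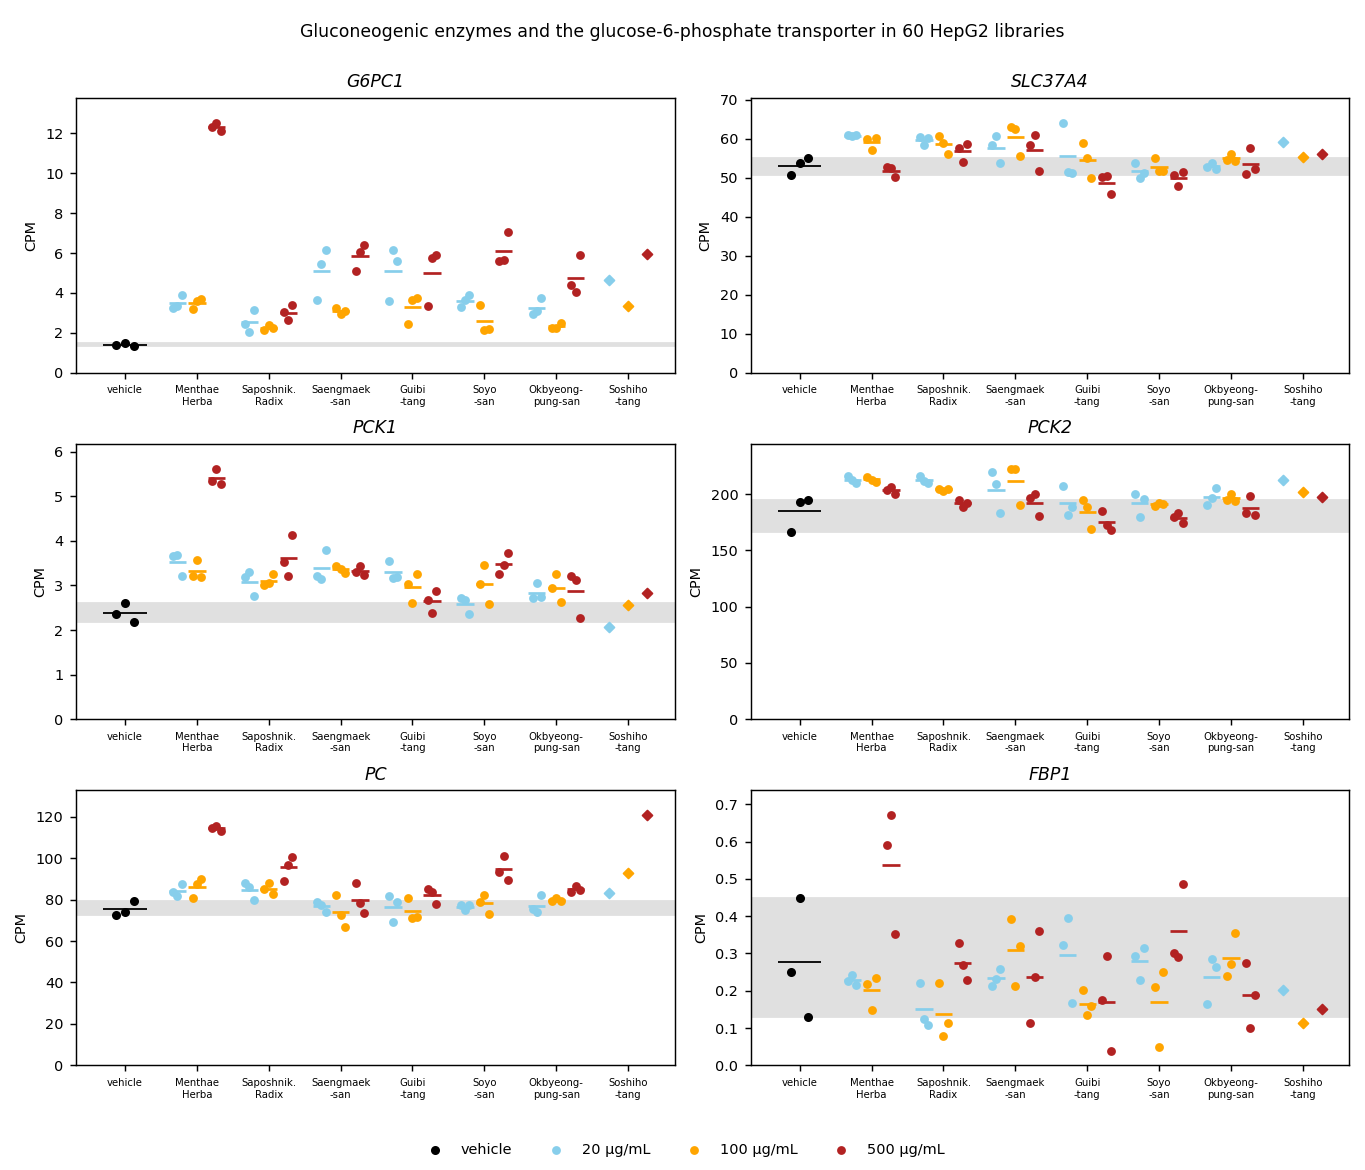
CPM (y axis, from 0) of the 5 enzymes and the transporter in each of the 60 libraries, by extract (x axis) and dose (colour). Horizontal bars are group means of 3 libraries, diamonds the single Soshiho-tang libraries, and the grey band the range of vehicle. G6PC1 lies above the vehicle band in every treated library, with its lowest mean at 100 µg/mL in every extract but Menthae Herba, while SLC37A4 and PCK2 stay near the band.

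SLC37A4 (ENSG00000137700, chromosome 11, 119024114 to 119030906), the transporter that feeds G6PC1, moved little. Vehicle libraries read 50.6, 53.7 and 55.02 CPM and those of Menthae Herba at 500 µg/mL 52.8, 52.5 and 50.2 CPM, which overlap, with a difference of -0.03 ± 0.06 (adjusted p = 0.72). Its Menthae Herba libraries at 20 µg/mL were higher, at 60.9, 60.6 and 60.8 CPM, so it fell from 20 to 500 µg/mL, at -0.23 ± 0.06 (adjusted p = 0.0037). No extract at any dose differed from vehicle by a call. SLC37A4 averaged, at 20 µg/mL, 60.8 CPM with Menthae Herba, 59.7 with Saposhnikoviae Radix, 57.6 with Saengmaek-san, 55.6 with Guibi-tang, 51.6 with Soyo-san and 52.9 with Okbyeongpung-san, and the Soshiho-tang library read 59.2 CPM. The SDs of SLC37A4 over the 19 groups of 3 libraries ran from 0.178 to 7.33 CPM. SLC37A4 averaged, at 100 µg/mL, 59.1 CPM with Menthae Herba, 58.6 with Saposhnikoviae Radix, 60.3 with Saengmaek-san, 54.6 with Guibi-tang, 52.9 with Soyo-san and 54.97 with Okbyeongpung-san, and the Soshiho-tang library read 55.3 CPM. SLC37A4 averaged, at 500 µg/mL, 51.8 CPM with Menthae Herba, 56.8 with Saposhnikoviae Radix, 56.98 with Saengmaek-san, 48.7 with Guibi-tang, 50.03 with Soyo-san and 53.6 with Okbyeongpung-san, and the Soshiho-tang library read 55.98 CPM. The levels of all groups lay within 48.7 to 60.8 CPM. The gene model shares bases with TRAPPC4 on the opposite strand, and whether counting used strand is not given in the sources used here.

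PC (ENSG00000173599, chromosome 11, 66848233 to 66958376), which makes the oxaloacetate that enters the pathway, rose at the highest dose. Its libraries read 72.4, 73.99 and 79.4 CPM with vehicle, 115, 116 and 113 CPM with Menthae Herba at 500 µg/mL and 89.2, 96.9 and 101 CPM with Saposhnikoviae Radix at 500 µg/mL. Soyo-san at that dose gave 93.5, 101 and 89.5 CPM. All 3 extracts were above vehicle in every library, by 0.61 ± 0.06 (adjusted p = 1.9e-11), 0.35 ± 0.06 (adjusted p = 0.0003) and 0.33 ± 0.06 (adjusted p = 8.4e-05). From 20 to 500 µg/mL the rise was 0.44 ± 0.06 (adjusted p = 9.5e-08) with Menthae Herba and 0.31 ± 0.06 (adjusted p = 0.00058) with Soyo-san, within 1 class of libraries. Okbyeongpung-san at 500 µg/mL had all libraries above vehicle without a call, at 0.18 ± 0.06 (adjusted p = 0.069).

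Lower doses left PC closer to vehicle than 500 µg/mL did. With Menthae Herba and Saposhnikoviae Radix all libraries at 20 and at 100 µg/mL were still above every vehicle library. PC averaged, at 100 µg/mL, 86.03 CPM with Menthae Herba, 85.3 with Saposhnikoviae Radix, 73.9 with Saengmaek-san, 74.6 with Guibi-tang, 78.2 with Soyo-san and 79.7 with Okbyeongpung-san, and the Soshiho-tang library read 92.9 CPM. PC averaged, at 20 µg/mL, 84.4 CPM with Menthae Herba, 84.6 with Saposhnikoviae Radix, 76.9 with Saengmaek-san, 76.6 with Guibi-tang, 76.5 with Soyo-san and 77.1 with Okbyeongpung-san, and the Soshiho-tang library read 83.3 CPM. The SDs of PC over the 19 groups of 3 libraries ran from 0.884 to 7.7 CPM. Among these only Menthae Herba at 100 µg/mL was called, at 0.19 ± 0.06 (adjusted p = 0.032), and the call was lost without either of 2 libraries of each group (adjusted p up to 0.17). PC averaged, at 500 µg/mL, 115 CPM with Menthae Herba, 95.6 with Saposhnikoviae Radix, 79.98 with Saengmaek-san, 82.3 with Guibi-tang, 94.8 with Soyo-san and 85.1 with Okbyeongpung-san, and the Soshiho-tang library read 121 CPM. The Soshiho-tang library at 500 µg/mL was the highest of all 60 for this gene. PC shares bases with LRFN4 on the opposite strand, which had a median of 346 counts.

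PCK1 (ENSG00000124253, chromosome 20, 57561080 to 57568112), the cytosolic carboxykinase and a textbook target of glucagon and insulin, was scarce and rose. Vehicle libraries read 2.36, 2.61 and 2.19 CPM and Menthae Herba at 500 µg/mL 5.34, 5.61 and 5.29 CPM, the highest group for the gene and apart from all others. The change was 1.18 ± 0.12 (adjusted p = 4.2e-12). Saposhnikoviae Radix (3.52, 3.21 and 4.13 CPM), Soyo-san (3.26, 3.46 and 3.72 CPM) and Saengmaek-san (3.30, 3.44 and 3.24 CPM) were also above vehicle in every library at 500 µg/mL. Their changes were 0.61 ± 0.12 (adjusted p = 0.001), 0.55 ± 0.13 (adjusted p = 0.0012) and 0.48 ± 0.13 (adjusted p = 0.0098). The Saengmaek-san call was lost without vehicle replicate 3, without the filter and in a fit of the 2 groups alone.

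Mean PCK1 was highest at 500 µg/mL of the 3 doses with Menthae Herba, Saposhnikoviae Radix, Soyo-san and Soshiho-tang. PCK1 averaged, at 20 µg/mL, 3.53 CPM with Menthae Herba, 3.08 with Saposhnikoviae Radix, 3.39 with Saengmaek-san, 3.30 with Guibi-tang, 2.59 with Soyo-san and 2.84 with Okbyeongpung-san, and the Soshiho-tang library read 2.06 CPM. The SDs of PCK1 over the 19 groups of 3 libraries ran from 0.0824 to 0.514 CPM. PCK1 averaged, at 100 µg/mL, 3.32 CPM with Menthae Herba, 3.10 with Saposhnikoviae Radix, 3.36 with Saengmaek-san, 2.97 with Guibi-tang, 3.03 with Soyo-san and 2.95 with Okbyeongpung-san, and the Soshiho-tang library read 2.55 CPM. PCK1 averaged, at 500 µg/mL, 5.41 CPM with Menthae Herba, 3.62 with Saposhnikoviae Radix, 3.33 with Saengmaek-san, 2.64 with Guibi-tang, 3.48 with Soyo-san and 2.87 with Okbyeongpung-san, and the Soshiho-tang library read 2.83 CPM. From 20 to 500 µg/mL it rose with Menthae Herba by 0.62 ± 0.11 (adjusted p = 9.6e-06) and with Soyo-san by 0.43 ± 0.12 (adjusted p = 0.028). The Soyo-san call was lost with DESeq2, without the filter, in a fit of the 2 groups alone and without Soyo-san 20 replicate 3 or Soyo-san 500 replicate 2 or 3 (adjusted p up to 0.16). With Guibi-tang all libraries were lower at 500 than at 20 µg/mL, at -0.32 ± 0.12 (adjusted p = 0.13), which was not called. In the mean of 6 extracts PCK1 at 20 µg/mL was 0.38 ± 0.10 (adjusted p = 0.011) above vehicle, and this call was lost without the filter and without vehicle replicate 1 or 3. At 20 µg/mL it was called singly with Menthae Herba, Saengmaek-san and Guibi-tang, and at 100 µg/mL with Menthae Herba and Saengmaek-san. Each of these 5 calls was lost without at least 1 library, vehicle replicate 1 among them in all but Menthae Herba at 100 µg/mL, where it was replicate 2 of that group.

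PCK2 (ENSG00000100889, chromosome 14, 24094053 to 24110598), the mitochondrial carboxykinase, was the more abundant one and nearly flat. Per kilobase of exon model, vehicle had 44.2 CPM per kb of PCK2 and 0.350 CPM per kb of PCK1. The libraries read 167, 194 and 195 CPM with vehicle and 204, 206 and 200.3 CPM with Menthae Herba at 500 µg/mL, all higher but not called (0.14 ± 0.06, adjusted p = 0.054). PCK2 averaged, at 20 µg/mL, 213 CPM with Menthae Herba, 213 with Saposhnikoviae Radix, 204 with Saengmaek-san, 193 with Guibi-tang, 192 with Soyo-san and 198 with Okbyeongpung-san, and the Soshiho-tang library read 212 CPM. The SDs of PCK2 over the 19 groups of 3 libraries ran from 0.933 to 19 CPM. PCK2 averaged, at 100 µg/mL, 213 CPM with Menthae Herba, 204 with Saposhnikoviae Radix, 212 with Saengmaek-san, 184 with Guibi-tang, 191 with Soyo-san and 197 with Okbyeongpung-san, and the Soshiho-tang library read 202 CPM. PCK2 averaged, at 500 µg/mL, 204 CPM with Menthae Herba, 192 with Saposhnikoviae Radix, 193 with Saengmaek-san, 175 with Guibi-tang, 179 with Soyo-san and 188 with Okbyeongpung-san, and the Soshiho-tang library read 197 CPM. Menthae Herba at 20 and 100 µg/mL, Saposhnikoviae Radix at 20 µg/mL and Saengmaek-san at 100 µg/mL were called above vehicle, by 0.20 ± 0.06, 0.21 ± 0.06, 0.20 ± 0.06 and 0.19 ± 0.06. All 4 calls were lost without vehicle replicate 1, the lowest library for this gene. Across the mean of 6 extracts it was lower at 500 than at 20 µg/mL, at -0.10 ± 0.02 (adjusted p = 0.00086). The gene model overlaps NRL on the opposite strand (median 103 counts).

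FBP1 (ENSG00000165140, chromosome 9, 94603133 to 94640249), the bisphosphatase, was near the limit of these libraries. It had 1 to 17 counts per library, where 3 counts amount to 0.0926 to 0.147 CPM. The libraries read 0.250, 0.448 and 0.129 CPM with vehicle, 0.590, 0.670 and 0.352 CPM with Menthae Herba at 500 µg/mL and 0.227, 0.243 and 0.217 CPM with Menthae Herba at 20 µg/mL. FBP1 averaged, at 20 µg/mL, 0.229 CPM with Menthae Herba, 0.151 with Saposhnikoviae Radix, 0.235 with Saengmaek-san, 0.296 with Guibi-tang, 0.279 with Soyo-san and 0.238 with Okbyeongpung-san, and the Soshiho-tang library read 0.202 CPM. The SDs of FBP1 over the 19 groups of 3 libraries ran from 0.0135 to 0.165 CPM. FBP1 averaged, at 100 µg/mL, 0.201 CPM with Menthae Herba, 0.137 with Saposhnikoviae Radix, 0.308 with Saengmaek-san, 0.166 with Guibi-tang, 0.170 with Soyo-san and 0.289 with Okbyeongpung-san, and the Soshiho-tang library read 0.113 CPM. FBP1 averaged, at 500 µg/mL, 0.537 CPM with Menthae Herba, 0.275 with Saposhnikoviae Radix, 0.237 with Saengmaek-san, 0.169 with Guibi-tang, 0.359 with Soyo-san and 0.188 with Okbyeongpung-san, and the Soshiho-tang library read 0.151 CPM. The difference between 500 and 20 µg/mL of Menthae Herba, 1.22 ± 0.41 (adjusted p = 0.018), was the only call among the dose and vehicle comparisons of single extracts. It was lost with DESeq2, without the filter and without 3 of the 6 libraries (Menthae Herba 20 replicate 3, Menthae Herba 500 replicates 1 and 2). In the other extracts no difference was called. The antisense gene PCAT7 overlaps it (median 44 counts).

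PPARGC1A (ENSG00000109819, chromosome 4, 23755041 to 23904089) encodes the coactivator PGC-1 alpha, which acts with FOXO1 and HNF4A at the promoters of the enzymes. The libraries read 22.9, 17.8 and 20.5 CPM with vehicle, 31.97, 35.1 and 35.1 CPM with Menthae Herba at 500 µg/mL and 23.5, 26.3 and 25.1 CPM with Guibi-tang at 500 µg/mL. Both extracts were above vehicle in every library, by 0.74 ± 0.08 (adjusted p = 7.8e-11) and 0.29 ± 0.08 (adjusted p = 0.011), the second lost without Guibi-tang 500 replicate 2 or vehicle replicate 2. Soyo-san at 500 µg/mL read 22.7, 23.99 and 23.6 CPM and overlapped vehicle, at 0.20 ± 0.08 (adjusted p = 0.078).

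The dose comparison gave 3 calls for PPARGC1A. It rose from 20 to 500 µg/mL with Menthae Herba by 0.77 ± 0.08 (adjusted p = 2.7e-11), with Soyo-san by 0.31 ± 0.08 (adjusted p = 0.012) and with Guibi-tang by 0.26 ± 0.08 (adjusted p = 0.037). The Guibi-tang call was lost in a fit of the 2 groups alone and without 4 of its 6 libraries (Guibi-tang 20 replicates 1 and 2, Guibi-tang 500 replicates 2 and 3). PPARGC1A averaged, at 20 µg/mL, 19.95 CPM with Menthae Herba, 19.02 with Saposhnikoviae Radix, 20.2 with Saengmaek-san, 20.9 with Guibi-tang, 18.9 with Soyo-san and 19.4 with Okbyeongpung-san, and the Soshiho-tang library read 19.5 CPM. The SDs of PPARGC1A over the 19 groups of 3 libraries ran from 0.319 to 2.57 CPM. PPARGC1A averaged, at 100 µg/mL, 20.1 CPM with Menthae Herba, 19.1 with Saposhnikoviae Radix, 17.6 with Saengmaek-san, 19.6 with Guibi-tang, 17.8 with Soyo-san and 17.9 with Okbyeongpung-san, and the Soshiho-tang library read 18.3 CPM. PPARGC1A averaged, at 500 µg/mL, 34.1 CPM with Menthae Herba, 20.4 with Saposhnikoviae Radix, 20.7 with Saengmaek-san, 24.96 with Guibi-tang, 23.5 with Soyo-san and 19.4 with Okbyeongpung-san, and the Soshiho-tang library read 21.2 CPM. No extract at 20 or 100 µg/mL was called against vehicle.

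MLXIPL (ENSG00000009950, chromosome 7, 73593194 to 73624543) encodes ChREBP itself. Its libraries read 196, 201 and 215 CPM with vehicle, 155, 149 and 143 CPM with Menthae Herba at 500 µg/mL and 161, 162 and 168 CPM with Soyo-san at 500 µg/mL. Menthae Herba at 500 µg/mL was the lowest of the 19 replicated groups and Soyo-san at 500 µg/mL the next, and both lay below every vehicle library. MLXIPL fell against vehicle, with a change of -0.45 ± 0.06 (adjusted p = 1.1e-08) with Menthae Herba and -0.31 ± 0.06 (adjusted p = 7.6e-05) with Soyo-san. Saengmaek-san and Okbyeongpung-san libraries at 500 µg/mL were all lower too without a call, at -0.16 ± 0.06 (adjusted p = 0.063) and -0.17 ± 0.06 (adjusted p = 0.063).

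With Menthae Herba MLXIPL stepped down over the doses. Libraries read 212, 219 and 251 CPM at 20 µg/mL and 195, 194 and 186 CPM at 100 µg/mL, and neither dose overlapped the next. The change from 20 to 500 µg/mL was -0.61 ± 0.06 (adjusted p = 3.3e-12), and that from 20 to 100 µg/mL -0.24 ± 0.06 (adjusted p = 0.022). The smaller step was lost in a fit of the 2 groups alone and without any of the 3 libraries at 100 µg/mL or replicate 3 at 20 µg/mL (adjusted p up to 0.44). From 20 to 500 µg/mL MLXIPL also fell with Soyo-san, at -0.27 ± 0.06 (adjusted p = 0.0013), lost without Soyo-san 20 replicate 3. With Saengmaek-san it fell, at -0.25 ± 0.06 (adjusted p = 0.011), lost in a fit of the 2 groups alone and without Saengmaek-san 20 replicate 1 or 2 or Saengmaek-san 500 replicate 1. MLXIPL averaged, at 20 µg/mL, 227 CPM with Menthae Herba, 209 with Saposhnikoviae Radix, 216 with Saengmaek-san, 210.4 with Guibi-tang, 198 with Soyo-san and 197 with Okbyeongpung-san, and the Soshiho-tang library read 209 CPM. The SDs of MLXIPL over the 19 groups of 3 libraries ran from 0.938 to 21 CPM. MLXIPL averaged, at 100 µg/mL, 192 CPM with Menthae Herba, 208 with Saposhnikoviae Radix, 217 with Saengmaek-san, 203 with Guibi-tang, 186 with Soyo-san and 183 with Okbyeongpung-san, and the Soshiho-tang library read 223 CPM. MLXIPL averaged, at 500 µg/mL, 149 CPM with Menthae Herba, 209 with Saposhnikoviae Radix, 182 with Saengmaek-san, 202 with Guibi-tang, 164 with Soyo-san and 181 with Okbyeongpung-san, and the Soshiho-tang library read 188 CPM. With Saposhnikoviae Radix the dose difference was 0.00 ± 0.06 (adjusted p = 1), with a 95% interval of -0.11 to 0.12.

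**Figure D3:**
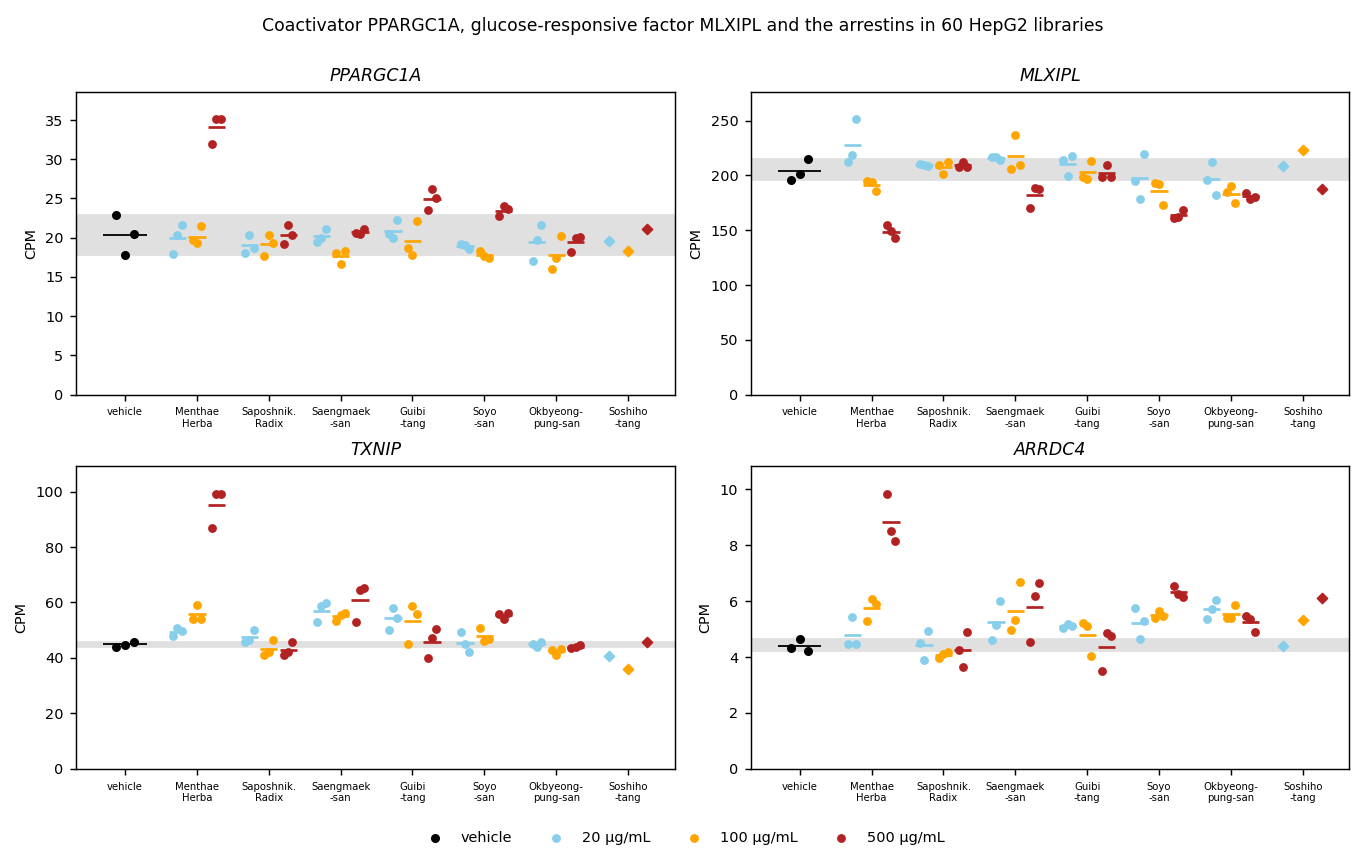
CPM (y axis, from 0) of PPARGC1A, MLXIPL, TXNIP and ARRDC4 in each of the 60 libraries, by extract (x axis) and dose (colour), with group means as bars, single Soshiho-tang libraries as diamonds and the vehicle range as a grey band. Menthae Herba at 500 µg/mL lies above the band for PPARGC1A, TXNIP and ARRDC4 and below it for MLXIPL.

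TXNIP (ENSG00000265972, chromosome 1, 145992435 to 145996600), the thioredoxin-interacting arrestin whose promoter pair is printed above, went the other way from MLXIPL. Its libraries read 43.96, 44.8 and 45.9 CPM with vehicle and 86.8, 99.3 and 99.3 CPM with Menthae Herba at 500 µg/mL, the highest group and apart from the rest. Saengmaek-san at 500 µg/mL gave 52.9, 64.4 and 65.3 CPM and Soyo-san 56.00, 53.9 and 56.1 CPM. All were above every vehicle library, by 1.08 ± 0.07 (adjusted p = 1.9e-17), 0.44 ± 0.08 (adjusted p = 4.3e-05) and 0.30 ± 0.08 (adjusted p = 0.0025). The Soyo-san call was lost with library class as a covariate (0.14, adjusted p = 0.22), a fit that takes the class effect from Saengmaek-san and Guibi-tang and cannot decide it for Soyo-san. Saposhnikoviae Radix, Guibi-tang and Okbyeongpung-san overlapped vehicle at 500 µg/mL, and the Saposhnikoviae Radix difference was -0.06 ± 0.08 (adjusted p = 0.72), interval -0.21 to 0.09.

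Between doses, TXNIP differed in opposite directions in 2 formulas. From 20 to 500 µg/mL it rose with Menthae Herba by 0.94 ± 0.07 (adjusted p = 2.7e-15) and with Soyo-san by 0.28 ± 0.08 (adjusted p = 0.012), the latter lost without Soyo-san 20 replicate 3. With Guibi-tang it fell, at -0.24 ± 0.08 (adjusted p = 0.04), from 50.2, 58.02 and 54.5 CPM to 40.2, 47.2 and 50.4 CPM. The Guibi-tang libraries overlap, and that call was lost with library class as a covariate, in a fit of the 2 groups alone and without 4 of the 6 libraries (Guibi-tang 20 replicates 2 and 3, Guibi-tang 500 replicates 1 and 2). TXNIP averaged, at 20 µg/mL, 49.5 CPM with Menthae Herba, 47.5 with Saposhnikoviae Radix, 57.1 with Saengmaek-san, 54.3 with Guibi-tang, 45.5 with Soyo-san and 44.9 with Okbyeongpung-san, and the Soshiho-tang library read 40.5 CPM. The SDs of TXNIP over the 19 groups of 3 libraries ran from 0.681 to 7.19 CPM. TXNIP averaged, at 100 µg/mL, 55.8 CPM with Menthae Herba, 43.3 with Saposhnikoviae Radix, 54.96 with Saengmaek-san, 53.2 with Guibi-tang, 47.97 with Soyo-san and 42.5 with Okbyeongpung-san, and the Soshiho-tang library read 36.1 CPM. TXNIP averaged, at 500 µg/mL, 95.1 CPM with Menthae Herba, 43.01 with Saposhnikoviae Radix, 60.9 with Saengmaek-san, 45.9 with Guibi-tang, 55.3 with Soyo-san and 44.1 with Okbyeongpung-san, and the Soshiho-tang library read 45.9 CPM.

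Saengmaek-san held TXNIP above vehicle at every dose, by 0.35 ± 0.08 at 20 µg/mL and 0.29 ± 0.08 at 100 µg/mL. The call at 100 µg/mL was lost without Saengmaek-san 100 replicate 2 or vehicle replicate 1. Menthae Herba at 100 µg/mL was called at 0.31 ± 0.08 (adjusted p = 0.003). Guibi-tang was called at 20 and 100 µg/mL, by 0.27 ± 0.08 and 0.24 ± 0.08, and both calls were lost with library class as a covariate, in a fit of the 2 groups alone and without any 1 vehicle library or replicate 2 or 3 of the dose.

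ARRDC4 (ENSG00000140450, chromosome 15, 97960698 to 97973838), the paralog of TXNIP that also limits glucose uptake, was scarcer, with 1.08 CPM per kb of exon model in vehicle beside 12.4 for TXNIP. Its libraries read 4.32, 4.65 and 4.21 CPM with vehicle, 9.85, 8.50 and 8.14 CPM with Menthae Herba at 500 µg/mL and 6.53, 6.25 and 6.15 CPM with Soyo-san at 500 µg/mL. Both extracts were above every vehicle library, by 1.01 ± 0.12 (adjusted p = 9.1e-10) and 0.52 ± 0.13 (adjusted p = 0.0017), and the Soyo-san call was lost with library class as a covariate (0.35, adjusted p = 0.07). Saengmaek-san at 500 µg/mL read 4.53, 6.17 and 6.67 CPM, overlapped vehicle and was called at 0.39 ± 0.13 (adjusted p = 0.034). That call was lost in 4 other settings and without Saengmaek-san 500 replicate 2 or 3 or vehicle replicate 1 or 3. Of these 3 libraries, the 1 in the higher MALAT1 class was the highest.

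ARRDC4 rose from 20 to 500 µg/mL with Menthae Herba alone among the extracts called, by 0.89 ± 0.12 (adjusted p = 2.1e-08). Soyo-san differed by 0.27 ± 0.12 (adjusted p = 0.21) with all libraries higher, and Guibi-tang by -0.21 ± 0.13 (adjusted p = 0.39) with all lower, neither called. ARRDC4 averaged, at 20 µg/mL, 4.79 CPM with Menthae Herba, 4.45 with Saposhnikoviae Radix, 5.26 with Saengmaek-san, 5.11 with Guibi-tang, 5.23 with Soyo-san and 5.71 with Okbyeongpung-san, and the Soshiho-tang library read 4.41 CPM. The SDs of ARRDC4 over the 19 groups of 3 libraries ran from 0.0789 to 1.12 CPM. ARRDC4 averaged, at 100 µg/mL, 5.75 CPM with Menthae Herba, 4.09 with Saposhnikoviae Radix, 5.65 with Saengmaek-san, 4.79 with Guibi-tang, 5.50 with Soyo-san and 5.55 with Okbyeongpung-san, and the Soshiho-tang library read 5.33 CPM. ARRDC4 averaged, at 500 µg/mL, 8.83 CPM with Menthae Herba, 4.26 with Saposhnikoviae Radix, 5.79 with Saengmaek-san, 4.38 with Guibi-tang, 6.31 with Soyo-san and 5.25 with Okbyeongpung-san, and the Soshiho-tang library read 6.11 CPM. The call of Menthae Herba at 100 µg/mL against vehicle, 0.39 ± 0.13 (adjusted p = 0.03), was lost without replicate 2 or 3 of that group or vehicle replicate 1 or 3.

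**Figure D4:**
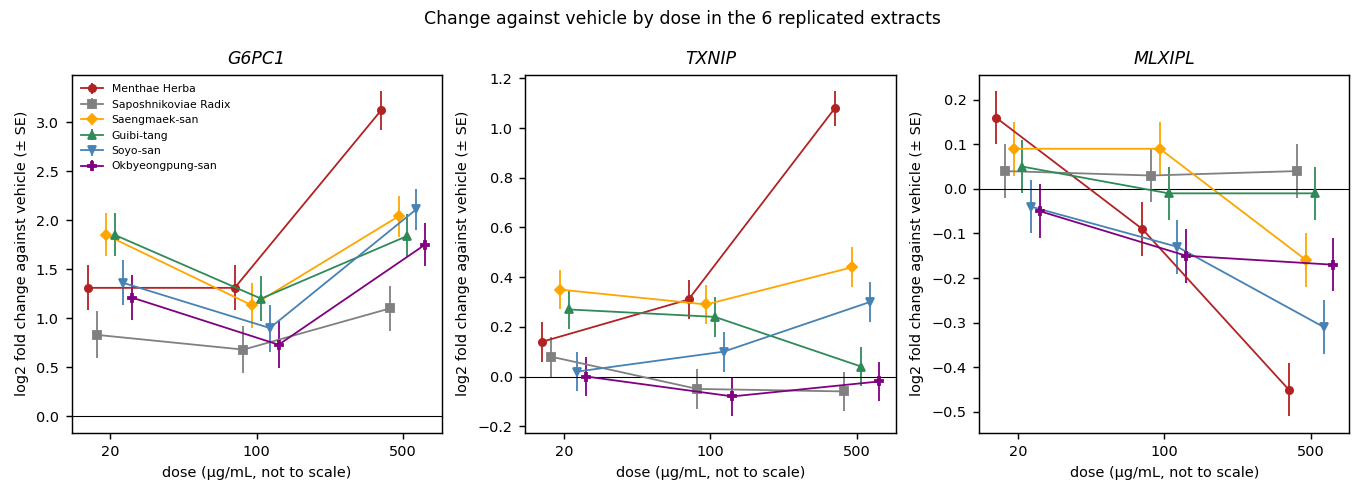
Log2 fold change against vehicle (y axis, ± SE) of G6PC1, TXNIP and MLXIPL at each dose (x axis, not to scale), 1 line per replicated extract, 3 libraries per point. G6PC1 is above 0 at each dose, TXNIP rises to 1.08 and MLXIPL falls to -0.45 with Menthae Herba at 500 µg/mL.

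The Menthae Herba dose response was then compared with that of each other extract as a difference of differences. Of the 10 genes, 6 differed from Saposhnikoviae Radix, 7 from Saengmaek-san, 8 from Guibi-tang, 5 from Soyo-san and 8 from Okbyeongpung-san, where 20.0%, 13.9%, 16.5%, 6.57% and 21.6% of all genes were called. G6PC1, PPARGC1A, TXNIP and ARRDC4 rose more, and MLXIPL fell more, with Menthae Herba than with each of the 5 others. Against Soyo-san, the MLXIPL difference was lost in a fit of the compared groups alone and without Menthae Herba 20 replicate 3 or Soyo-san 20 replicate 2, and the ARRDC4 difference without Menthae Herba 20 replicate 1 or 3, Menthae Herba 500 replicate 1 or Soyo-san 20 replicate 1. These 5 comparisons share the Menthae Herba libraries. Soyo-san was the nearest, with PC and PCK1 not distinguished (0.13 ± 0.09, adjusted p = 0.45 and 0.19 ± 0.17, adjusted p = 0.61). Against it the excess of Menthae Herba was 1.06 ± 0.25 (adjusted p = 0.0041) for G6PC1 and 0.66 ± 0.11 (adjusted p = 1.4e-05) for TXNIP.

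Other genes of the pathway did not move as a block with Menthae Herba at 500 µg/mL. The lists were written with earlier results of these data known, and their counts of calls stand beside 39.8% of all genes called against vehicle and 32.1% at 500 against 20 µg/mL. Of 16 other enzymes and carriers, 14 were tested, with 6 higher and 4 lower than vehicle and a median log2 fold change of 0.00. The mitochondrial alanine aminotransferase GPT2 rose by 0.65 ± 0.05 (adjusted p = 4.8e-17) and glycerol kinase GK by 0.51 ± 0.05 (adjusted p = 2.3e-11), while the cytosolic aminotransferase GPT fell, at -0.51 ± 0.15 (adjusted p = 0.0052). Between 500 and 20 µg/mL, 5 were higher and 4 lower, led by GPT (-0.69 ± 0.15, adjusted p = 0.00019), GPT2 (0.41 ± 0.05, adjusted p = 2.4e-10) and the dicarboxylate carrier SLC25A10 (-0.41 ± 0.07, adjusted p = 1.4e-05).

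Transcriptional regulators were called in both directions. Of 24 regulators of gluconeogenesis, 5 were higher and 11 lower than vehicle with Menthae Herba at 500 µg/mL, with 12 of the 24 fold changes above 0 and a median of -0.03. CEBPA, a liver factor that activates PCK1, went from 140.3 to 64.5 CPM and fell, at -1.12 ± 0.11 (adjusted p = 4.4e-11). NR0B2, which encodes the repressor SHP, rose by 1.02 ± 0.07 (adjusted p = 8.2e-18), and PPARGC1B, the paralog of PPARGC1A, fell, at -0.70 ± 0.10 (adjusted p = 1.6e-07). Against 20 µg/mL, 5 were higher and 5 lower, among them CEBPA (-1.42 ± 0.11, adjusted p = 9.2e-14), NR0B2 (0.78 ± 0.07, adjusted p = 1.2e-13) and the nuclear receptor NR4A1 (0.51 ± 0.09, adjusted p = 1.8e-05).

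All 4 tested genes of the 5 on the list of other insulin-repressed liver genes were called higher with Menthae Herba at 500 µg/mL than with vehicle. IGFBP1, which binds insulin-like growth factors, went from 26.6 to 729.5 CPM, a rise of 4.78 ± 0.25 (adjusted p = 4.1e-19). The insulin receptor substrate IRS2 rose by 1.88 ± 0.47 (adjusted p = 0.001) from 0.130 CPM, near the floor, and tyrosine aminotransferase TAT by 0.56 ± 0.13 (adjusted p = 0.0004). Against 20 µg/mL, 3 were called higher, IGFBP1 (3.35 ± 0.23, adjusted p = 1.9e-15), the insulin receptor INSR (0.50 ± 0.07, adjusted p = 1.7e-07) and TAT (0.35 ± 0.13, adjusted p = 0.028), and the median of the list was 0.63.

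The remaining targets and partners of ChREBP split. Of 22 other targets, 19 were tested, with 5 higher and 7 lower than vehicle and a median of -0.12. BHLHE40, a clock-linked repressor, rose by 1.17 ± 0.10 (adjusted p = 2.1e-14) and the glucokinase regulator GCKR by 0.89 ± 0.10 (adjusted p = 3e-10), while fatty acid synthase FASN, at 3137 CPM in vehicle, fell, at -0.55 ± 0.08 (adjusted p = 4.9e-07). Against 20 µg/mL, 4 were higher and 11 lower, led by BHLHE40 (1.20 ± 0.10, adjusted p = 1.3e-14), the triglyceride enzyme DGAT2 (-0.64 ± 0.07, adjusted p = 5.1e-11) and GCKR (0.56 ± 0.10, adjusted p = 9.1e-06). Of the 6 ChREBP partners and arrestin paralogs, 5 were tested. ARRDC2 (0.77 ± 0.12, adjusted p = 9.2e-07) and ARRDC3 (0.24 ± 0.09, adjusted p = 0.023) rose against vehicle. Both also rose against 20 µg/mL (0.50 ± 0.12, adjusted p = 0.00077 and 0.25 ± 0.09, adjusted p = 0.018), where ARRDC1 fell (-0.22 ± 0.07, adjusted p = 0.019).

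With Soyo-san at 500 against 20 µg/mL, 7.58% of all genes were called. Among the enzymes and carriers 2 of 14 rose, GK (0.17 ± 0.05, adjusted p = 0.043) and GPT2 (0.15 ± 0.05, adjusted p = 0.035). Among the regulators 1 rose and 3 fell, with CEBPA at -0.58 ± 0.11 (adjusted p = 0.00022), NR0B2 at 0.46 ± 0.07 (adjusted p = 4.3e-06) and the glucocorticoid receptor NR3C1 at -0.30 ± 0.06 (adjusted p = 0.00096). IGFBP1 (1.37 ± 0.22, adjusted p = 3e-05) and TAT (0.46 ± 0.13, adjusted p = 0.017) rose among the insulin-repressed genes. Of the ChREBP targets 2 rose and 7 fell, including GCKR (0.42 ± 0.10, adjusted p = 0.0044), FASN (-0.39 ± 0.08, adjusted p = 0.0011) and the desaturase SCD (-0.37 ± 0.05, adjusted p = 4.4e-07).

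For Guibi-tang and Saengmaek-san at 500 against 20 µg/mL, 8.12% and 1.96% of all genes were called. With Guibi-tang, GK rose by 0.20 ± 0.05 (adjusted p = 0.0098) as the only enzyme or carrier called. PPARGC1B (0.56 ± 0.10, adjusted p = 5.3e-05) and NR0B2 (0.26 ± 0.07, adjusted p = 0.012) rose and NR3C1 (-0.23 ± 0.06, adjusted p = 0.014) fell among the regulators. IGFBP1 rose by 0.86 ± 0.21 (adjusted p = 0.0061), and 2 ChREBP targets rose and 2 fell, with BHLHE40 at 0.97 ± 0.10 (adjusted p = 1.4e-10), GCKR at 0.59 ± 0.10 (adjusted p = 1.7e-05) and regucalcin RGN at -0.42 ± 0.07 (adjusted p = 5.6e-06). With Saengmaek-san, IGFBP1 rose by 0.84 ± 0.21 (adjusted p = 0.024), and RGN (-0.26 ± 0.07, adjusted p = 0.02) and the elongase ELOVL6 (-0.20 ± 0.05, adjusted p = 0.0081) fell. No gene of the 5 lists was called with Saposhnikoviae Radix or Okbyeongpung-san by edgeR, where 9 and 7 of the 66 tested were at an unadjusted p under 0.05. DESeq2 was not run on these lists.

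The genes whose group means followed G6PC1 most closely were found by Pearson correlation of log2 CPM over the 19 replicated groups, which share vehicle and sequencing and are given as a description. They were PLOD2 (r = 0.939), a collagen lysyl hydroxylase, NDRG1 (0.917), CP (0.916), which encodes ceruloplasmin, TUBB1 (0.910) and RIMKLA (0.908). For TXNIP they were AHSG (0.940), which encodes fetuin-A, ITIH3 (0.921), BPIFB2 (0.916), the cystine transporter SLC7A11 (0.914) and CCN2 (0.911). The 2 sets have no gene in common. None of the other 9 genes of the pathway is in either, but only genes with a mean of at least 5 CPM could enter. G6PC1, PCK1 and FBP1 average less than this, so their absence was set by that limit and tells nothing about likeness.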

How the data were processed

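HepG2 libraries were made with a directional kit and read as paired ends of 100 bases, per the labels' protocols. Per the submitters' processing notes, FastQC 0.11.9, Trim Galore 0.6.5, STAR 2.7.3a and RSEM 1.3.3 were used with GRCh38 (hg38). Their settings, the annotation release and the strand setting of counting were not given in the sources used here. The authors deposited RSEM expected counts for 60675 genes in 60 libraries. They were rounded to whole numbers, and genes on 0.05% of the counts have no symbol in the tables used. Positions and overlaps are from GENCODE 29, and promoters from RefSeq GRCh38.p14.

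The 10 genes, the other gene lists and the tests were chosen with earlier results of these data known. Genes were kept by edgeR's filterByExpr (minimum count 10), scaled by TMM and tested by edgeR 4.0.16 (robust quasi-likelihood, all 19 replicated groups in 1 fit, 57 libraries) in R 4.3.3, with p adjusted by Benjamini-Hochberg over 16644 genes. Soshiho-tang has 1 library per dose and was not tested. Replicate libraries of a group differed beyond counting error in all 57 pairs (chi-square per degree of freedom 2.22 to 18.3), so none was counted as a duplicate. Counting error sets the floor for a gene at 3 counts. The series text gives vehicle as 2% DMSO, the sample labels as 0.1%, and the labels were used; that text also says that extracts toxic under 500 µg/mL were dosed at a lower concentration, while the labels give 20, 100 and 500 µg/mL for every extract here.

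The 10 genes are all described, with their level in every group. For other lists, the 3 called genes of largest change per comparison are named, and for G6PC1 and TXNIP the 5 genes of highest correlation with a mean of at least 5 CPM. The fit was tested on simulated data with 200 changed genes: for Menthae Herba at 500 µg/mL against vehicle (16474 genes) 61.2% of 1.5-fold and 86.6% of 2-fold changes were recovered. The data themselves had 6623 of 16644 genes called in this comparison, and the simulation held no library classes. These shares therefore need not carry over to the data. Alternatives were RLE scaling, DESeq2 1.42.0, no filter, a fit of the compared groups alone, replicate blocks, library class by MALAT1 as a covariate and leaving out each library. Chosen after seeing the data were the comparisons of 100 with 20 µg/mL and a fit of lower-class libraries only.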

Additional observations from a re-analysis of the deposited data

Results flagged for a closer look

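The change from 20 to 500 µg/mL differed between Menthae Herba and another extract by a test of the difference itself (edgeR, adjusted over 16644 genes) in 34 of 50 gene and extract pairs. Values are log2 fold changes of Menthae Herba minus those of the other extract, with 3 libraries in each of the 4 groups of a comparison. G6PC1, the last enzyme of the pathway, differed by 1.55 ± 0.27 from Saposhnikoviae Radix (adjusted p = 1.6e-05), 1.63 ± 0.25 from Saengmaek-san (adjusted p = 2.1e-06), 1.83 ± 0.25 from Guibi-tang (adjusted p = 1.8e-07), 1.06 ± 0.25 from Soyo-san (adjusted p = 0.0041) and 1.28 ± 0.26 from Okbyeongpung-san (adjusted p = 0.00016). PPARGC1A, the coactivator, differed by 0.67 ± 0.12 from Saposhnikoviae Radix (adjusted p = 1.1e-05), 0.74 ± 0.12 from Saengmaek-san (adjusted p = 3.8e-06), 0.51 ± 0.11 from Guibi-tang (adjusted p = 0.00086), 0.46 ± 0.12 from Soyo-san (adjusted p = 0.007) and 0.77 ± 0.12 from Okbyeongpung-san (adjusted p = 8.7e-07). MLXIPL, the gene of ChREBP, differed by -0.61 ± 0.08 from Saposhnikoviae Radix (adjusted p = 1.2e-07), -0.36 ± 0.08 from Saengmaek-san (adjusted p = 0.0014), -0.55 ± 0.08 from Guibi-tang (adjusted p = 1.6e-06), -0.34 ± 0.08 from Soyo-san (adjusted p = 0.0061) and -0.49 ± 0.08 from Okbyeongpung-san (adjusted p = 9.7e-06). The Soyo-san difference was lost in a fit of the compared groups alone and without Menthae Herba 20 replicate 3 or Soyo-san 20 replicate 2. TXNIP, the arrestin with the promoter pair, differed by 1.08 ± 0.11 from Saposhnikoviae Radix (adjusted p = 1.5e-11), 0.86 ± 0.11 from Saengmaek-san (adjusted p = 1.5e-08), 1.18 ± 0.11 from Guibi-tang (adjusted p = 2e-12), 0.66 ± 0.11 from Soyo-san (adjusted p = 1.4e-05) and 0.97 ± 0.11 from Okbyeongpung-san (adjusted p = 3.7e-10). ARRDC4, its paralog, differed by 0.93 ± 0.18 from Saposhnikoviae Radix (adjusted p = 5.4e-05), 0.76 ± 0.17 from Saengmaek-san (adjusted p = 0.0011), 1.10 ± 0.17 from Guibi-tang (adjusted p = 3.9e-06), 0.62 ± 0.17 from Soyo-san (adjusted p = 0.017) and 1.01 ± 0.17 from Okbyeongpung-san (adjusted p = 8.2e-06). The Soyo-san difference was lost without Menthae Herba 20 replicate 1 or 3, Menthae Herba 500 replicate 1 or Soyo-san 20 replicate 1. PC, pyruvate carboxylase, differed by 0.26 ± 0.09 from Saposhnikoviae Radix (adjusted p = 0.028), 0.39 ± 0.09 from Saengmaek-san (adjusted p = 0.0014), 0.34 ± 0.09 from Guibi-tang (adjusted p = 0.0053) and 0.30 ± 0.09 from Okbyeongpung-san (adjusted p = 0.011). The first of these was lost without any 1 of 5 libraries (Menthae Herba 20 replicates 1 and 2, Saposhnikoviae Radix 20 replicates 1 and 2, Saposhnikoviae Radix 500 replicate 1). PCK1, the cytosolic carboxykinase, differed by 0.65 ± 0.16 from Saengmaek-san (adjusted p = 0.0036), 0.94 ± 0.16 from Guibi-tang (adjusted p = 2.4e-05) and 0.60 ± 0.17 from Okbyeongpung-san (adjusted p = 0.0063). The Saengmaek-san difference was lost in lower-class libraries alone (adjusted p = 0.051), and the Okbyeongpung-san difference without the filter and without Okbyeongpung-san 500 replicate 3. FBP1, the bisphosphatase, differed by 1.98 ± 0.63 from Guibi-tang (adjusted p = 0.022). It rests on 1 to 17 counts per library and was lost without the filter, in a fit of the compared groups alone, and without Guibi-tang 20 replicate 2, Guibi-tang 500 replicate 3 or Menthae Herba 500 replicate 2. SLC37A4, the glucose-6-phosphate transporter, differed by -0.25 ± 0.09 from Okbyeongpung-san (adjusted p = 0.041). It was lost without the filter and without any 1 of 10 of the 12 libraries.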

How the results depend on the processing

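Of 115 called results among the 10 genes, 75 were kept under every alternative run, 27 were lost under at least 1 alternative other than leaving out a library, and 36 without at least 1 library. DESeq2 gave an adjusted p for 337 results, called or not, and a fit of only the groups compared for 346, beside 380 with RLE size factors. A call with no adjusted p in a setting was not counted as lost there. RLE size factors ended no call. Counts of genes called at 500 µg/mL against vehicle changed from 4 to 2 for Saengmaek-san in a fit of only the groups compared, and for Okbyeongpung-san from 1 to 2 with DESeq2, 2 with no filter on low counts, 3 with only the groups compared and 4 with library class as a covariate. At 500 against 20 µg/mL, only the groups compared gave 0 in place of 1 for Saengmaek-san and 0 in place of 2 for Guibi-tang. Leaving out a library gave 2 to 4 for Saengmaek-san and 1 to 2 for Guibi-tang at 500 µg/mL against vehicle, and 0 to 1 for Saengmaek-san, 0 to 2 for Guibi-tang and 3 to 6 for Soyo-san at 500 against 20 µg/mL. At 500 µg/mL against vehicle the Saengmaek-san count fell to 2 without vehicle replicate 3 and the Guibi-tang count to 1 without Guibi-tang 500 replicate 2 or vehicle replicate 2. At 500 against 20 µg/mL the Saengmaek-san count fell to 0 without Saengmaek-san 20 replicate 1 or 2 or Saengmaek-san 500 replicate 1. The Guibi-tang count fell to 0 without Guibi-tang 500 replicate 2 and to 1 without Guibi-tang 20 replicate 1 or 2 or Guibi-tang 500 replicate 1 or 3. The Soyo-san count fell to 3 without Soyo-san 20 replicate 3, to 4 without Soyo-san 500 replicate 3 and to 5 without Soyo-san 500 replicate 2.

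SLC37A4 changed sign to 0.19 ± 0.05 with library class as a covariate for Okbyeongpung-san at 20 µg/mL and Soyo-san at 100 µg/mL, both 0.00 without it. The causes were not tested. Replicate numbers were not taken to pair the libraries, since not every pair correlated above 0.1: deviations of same-numbered libraries correlated at -0.105 to 0.049 for 500 µg/mL and vehicle and at -0.068 to 0.195 for 500 and 20 µg/mL, with 8 of 18 highest with their own number. The 3 correlations above 0.1 (Saengmaek-san replicate 3 at 0.195, Guibi-tang replicates 1 and 3 at 0.131 and 0.158) were between libraries of the same MALAT1 class, which Saengmaek-san replicates 1 to 3 and Guibi-tang replicates 1 and 3 kept at every dose. The replicate block ended 0 calls and added 4, and the replicate block within first code number changed the Guibi-tang count at 500 against 20 µg/mL from 2 to 4. FBP1 had the lowest counts of the 10 genes, 1 to 17 per library. Counts over all genes at 500 µg/mL against vehicle moved by over 1.5 times in a fit of only the groups compared (Saposhnikoviae Radix 966 to 377, Saengmaek-san 2105 to 960) and with library class as a covariate (Saposhnikoviae Radix to 1534). At 500 against 20 µg/mL the Saposhnikoviae Radix count of 66 became 191 without the filter, 30 with only the groups compared and 107 with the block within first code number. The Saengmaek-san count of 326 became 536, 55 and 501 in these settings and 200 in lower-class libraries only. Guibi-tang went from 1352 to 855 with only the groups compared, and Okbyeongpung-san from 4 to 108 without the filter and 9 with the block within first code number or the class covariate. With only the groups compared, 4 of 6 comparisons with vehicle moved at each lower dose, to 0.151 to 1.36 times at 100 µg/mL and 0.215 to 1.16 times at 20 µg/mL; the class covariate moved 2 and 3 of them, to 1.88 and 1.87 times at most. At 100 against 20 µg/mL the main counts were 1 to 156, and they were 84 to 367 without the filter, 0 to 86 with only the groups compared and 0 to 241 with DESeq2. In the mean of 6 extracts the count of 168 for that comparison became 321 without the filter, 278 with DESeq2, 305 with the class covariate and 326 with the block within first code number, and 1808 at 20 µg/mL against vehicle became 2743 with the class covariate.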
